A study of Mus musculus with 50 samples.

Results

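The Ptprc-high and Ptprc-low mammary gland tumors are the 12 tumors with the highest and the 12 with the lowest RPKM of Ptprc among 49 ranked tumors of a series of 50, taken irrespective of treatment. Tumor insulin_13 was left out before ranking. Its Ptprc level of 9.27 RPKM lay within the range of the Ptprc-low tumors. RPKM are read counts corrected for the size of a library and the length of a gene. Ptprc (ENSMUSG00000026395) lies on chromosome 1, from 138062861 to 138175708 on the minus strand of GRCm38. The ranking used the Ptprc value itself, so Ptprc is described here and not tested.

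Ptprc encodes CD45, a transmembrane tyrosine phosphatase on the surface of nucleated blood cells. In lymphocytes CD45 removes the inhibitory phosphate from Src family kinases such as Lck, which is needed for signaling by antigen receptors. Macrophages, T cells, B cells, dendritic cells and neutrophils all carry CD45, and tumors of the mammary gland can hold each of these cell types beside tumor cells, fibroblasts, vessels and fat. RNA of whole tumors was sequenced, so fewer cells of a type and less RNA per cell cannot be told apart.

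Tumors, named by treatment and mouse number, came from female p53R270H/+WAPCre mice, which carry 1 mutant p53 allele that the Cre recombinase switches on in mammary epithelium under the Wap promoter, and which were 8 weeks old at the start. Vehicle, IGF1, X10, glargine or insulin was injected under the skin every other day until a tumor had reached 1 cm3, and tumors were taken 24 h after the last injection. Glargine and X10 are insulin analogues and IGF1 is insulin-like growth factor 1. There were 10 tumors per treatment, chosen by the authors as EMT-like tumors with a latency near the median of their group, and the samples titled Untreated were taken as the vehicle group, because the treatment protocol names vehicle and no untreated mice. All mice carried the mutant p53 allele and Cre, and RNA came from a piece of each tumor kept in RNAlater.

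Library sizes recovered from the values were 34.7 to 51.9 M reads in the Ptprc-high tumors and 35.3 to 49.6 M reads in the Ptprc-low tumors, with medians of 40.7 and 43.6 M reads. Tumors insulin_8 and X10_105, which rank highest for Ptprc, stood apart by their B cell and lymph node genes, as given below, and results that rest on them are given without them as well. Other tissue was seen too. The summed RPKM of 12 fast skeletal muscle genes ranged from 7.66 to 7374 in the Ptprc-high and from 6.93 to 2434 in the Ptprc-low tumors, and that of 15 adipocyte genes from 96.7 to 1023 and from 72.8 to 616. None of the genes of these lists passed the test between the groups, and their part in the results was not tested beyond the fit with both scores as covariates.

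Promoters of 4 genes that were higher in the Ptprc-high tumors are shown because each holds a short motif known from the control of its gene family. They were taken from RefSeq (GRCm38.p6) and run from 250 bases before to 50 bases after the start of the gene. Laptm5 (chr4:130913066-130913365, plus strand) is a lysosomal membrane protein of leukocytes, H2-Aa (chr17:34287774-34288073, minus strand) is the alpha chain of an MHC class II molecule, and Gbp5 (chr3:142496684-142496983, plus strand) and Gbp7 (chr3:142530086-142530385, plus strand) are guanylate binding proteins, GTPases that interferon gamma induces. Capitals mark GAGGAAG, the core bound by the myeloid and B cell factor PU.1, in Laptm5, GATTGG, the CCAAT or Y box of class II promoters, in H2-Aa, and TTCNNNGAA (STAT site) and 2 GAAA motifs with 2 bases between them (interferon response element) in Gbp5 and Gbp7, on either strand.
Laptm5: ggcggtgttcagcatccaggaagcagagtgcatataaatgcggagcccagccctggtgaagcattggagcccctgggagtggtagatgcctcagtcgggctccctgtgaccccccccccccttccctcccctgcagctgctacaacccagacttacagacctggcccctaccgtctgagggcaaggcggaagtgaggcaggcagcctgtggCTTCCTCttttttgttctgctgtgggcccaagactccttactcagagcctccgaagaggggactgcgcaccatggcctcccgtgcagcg
H2-Aa: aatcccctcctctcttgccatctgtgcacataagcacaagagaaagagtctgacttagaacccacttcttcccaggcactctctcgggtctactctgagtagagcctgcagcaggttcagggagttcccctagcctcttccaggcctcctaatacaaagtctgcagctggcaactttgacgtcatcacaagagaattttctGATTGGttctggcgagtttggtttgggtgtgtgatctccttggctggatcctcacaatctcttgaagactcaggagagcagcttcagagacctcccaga
Gbp5: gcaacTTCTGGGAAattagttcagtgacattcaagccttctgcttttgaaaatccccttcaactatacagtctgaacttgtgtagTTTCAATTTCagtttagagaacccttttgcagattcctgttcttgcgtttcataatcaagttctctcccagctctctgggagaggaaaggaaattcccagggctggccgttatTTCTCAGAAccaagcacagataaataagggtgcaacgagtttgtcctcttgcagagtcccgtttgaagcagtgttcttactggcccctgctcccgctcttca
Gbp7: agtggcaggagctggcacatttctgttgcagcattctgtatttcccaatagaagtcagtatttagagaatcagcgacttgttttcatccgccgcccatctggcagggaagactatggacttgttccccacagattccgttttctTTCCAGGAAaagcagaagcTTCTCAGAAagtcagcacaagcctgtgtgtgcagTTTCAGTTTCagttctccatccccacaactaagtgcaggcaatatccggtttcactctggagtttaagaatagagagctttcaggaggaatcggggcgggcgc

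The GAGGAAG of Laptm5 lies 39 bases before the start, on the other strand, and the GATTGG of H2-Aa lies 49 bases before the start. Gbp5 holds TTCNNNGAA at 245 and 52 bases and the interferon response element at 165 bases before the start, and Gbp7 holds TTCNNNGAA at 106 and 87 bases and the interferon response element at 53 bases before the start. The interferon response element was found in 18 of 31 promoters (58.1%) of the interferon list against 3.44% of all 32851 promoters. TTCNNNGAA was found in 25.8% of them against 8.30%, and as well in 3 of 10 promoters (30.0%) of the lymph node stroma list and 4 of 14 (28.6%) of the dendritic cell list. GATTGG was found in 7 of 9 promoters (77.8%) of 8 MHC class II genes and in 66.7% of those of the MHC class I list, against 16.1% of all promoters. GAGGAAG was found in 13 of 34 promoters (38.2%) of the macrophage list and in 6 of 22 (27.3%) of the pan-leukocyte list, against 13.6%. The B and plasma cell list held it in 0 of 14 promoters and the dendritic cell list in 1 of 14 (7.14%). Lists with 0 or 1 higher genes held it as well, with 6 of 11 mesenchymal (54.5%), 8 of 16 neutrophil (50.0%) and 4 of 9 erythrocyte and platelet promoters (44.4%). GATTGG was also found in 17 of 25 promoters (68.0%) of the proliferation list, of which 0 genes were higher. A match of letters is a description and shows no binding.

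Ptprc was 27.1 to 51.3 RPKM in the Ptprc-high tumors, with a median of 30.7 and a mean of 33.1 ± 7.56 (SD, n = 12). It was 4.59 to 15.9 RPKM in the Ptprc-low tumors, with a median of 13.9 and a mean of 12.3 ± 4.04 (SD, n = 12). The 25 tumors between them were 16.1 to 26.9 RPKM, with a median of 20.2. The borders were no gaps in the ranking. The last Ptprc-high tumor, glargine_64, had 27.1 RPKM and the next tumor, X10_113, had 26.9 RPKM, and Untreated_189 with 15.9 RPKM was the first Ptprc-low tumor after Untreated_194 with 16.1 RPKM. Tumors insulin_8 (51.3 RPKM) and X10_105 (45.5 RPKM) were above the other Ptprc-high tumors, of which the highest had 35.0 RPKM.

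**Figure D1:**
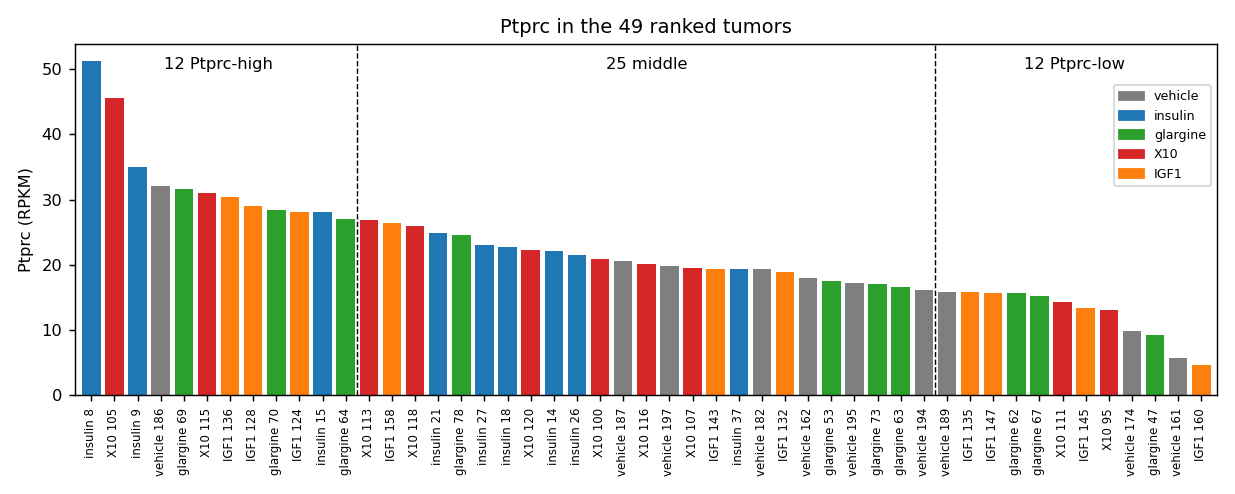
Ptprc RPKM of the 49 ranked tumors, 1 bar per tumor in descending order and colored by treatment. The 12 Ptprc-high tumors start at 27.1 RPKM and the 12 Ptprc-low tumors end at 15.9 RPKM, and no insulin tumor is among the Ptprc-low tumors with insulin_13 (9.27 RPKM) left out.

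The Ptprc-high tumors were 1 vehicle, 3 insulin, 3 glargine, 2 X10 and 3 IGF1 tumors, and the Ptprc-low tumors were 3 vehicle, 3 glargine, 2 X10 and 4 IGF1 tumors. With insulin_13 left out, no insulin tumor was Ptprc-low, whereas with its 9.27 RPKM it would have been one. For this reason a fit with treatment as a covariate takes the difference from the other 4 treatments. Ptprc of the vehicle tumors was 5.68 to 32.1 RPKM with a mean of 17.5 ± 6.95 (SD, n = 10). The mean was 27.5 ± 10.0 (n = 9) for insulin, 23.9 ± 9.35 for X10, 20.3 ± 7.15 for glargine and 20.2 ± 8.28 for IGF1 (n = 10 each). Insulin tumors had the highest mean, which was 25.7 ± 11.1 RPKM (SD, n = 10) with insulin_13, and the ranges of the treatments overlapped.

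Of 16732 genes tested beside Ptprc, 1488 (8.89%) were higher and 574 (3.43%) were lower in the Ptprc-high tumors, at a Benjamini-Hochberg adjusted p under 0.05 with limma on log2(RPKM + 0.5). The higher genes were 72.2% of these, and the split depended on the scaling, since 49.7% were higher after quantile normalization (1124 higher, 1139 lower) and 57.8% after removal of each tumor's trend over gene length. The median log2 difference of all genes was 0.04. In 49 genes (0.293%) the lowest Ptprc-high tumor was above the highest Ptprc-low tumor, and there were 0 genes with the reverse. Without insulin_8 and X10_105, 1185 genes were higher and 430 lower, of which 1132 and 403 were among those called with all 24 tumors. With treatment as a covariate 971 genes passed, against 2062 without it.

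Genes carried by leukocytes in general went with Ptprc. Of 25 tested pan-leukocyte genes 22 were higher, 0 were lower and the median log2 difference was 0.96. This is 88.0% of the list against 8.89% of all genes. Laptm5 was 519 to 1166 RPKM (median 783) in the Ptprc-high and 277 to 688 RPKM (median 439) in the Ptprc-low tumors. The groups overlapped, and 8 of 12 Ptprc-high tumors were above every Ptprc-low tumor, with a log2 difference of 0.88 ± 0.14 (SE) and an adjusted p of 0.00025 in limma. Coro1a, an actin regulator of leukocytes, was 156 to 545 RPKM (median 329) against 53.3 to 238 RPKM (median 167), with a log2 difference of 1.09 ± 0.22 and an adjusted p of 0.00200. Cd53, a tetraspanin of leukocytes, was 20.0 to 47.6 RPKM (median 31.0) against 15.6 to 45.1 RPKM (median 25.1), and its log2 difference of 0.35 ± 0.14 did not pass (adjusted p = 0.118 in limma, 0.040 to 0.44 over the alternatives). The tetraspanin Cd37 (0.95, adjusted p = 0.0589) and Lsp1 (0.05, adjusted p = 0.908), another actin-binding protein, did not pass either. Ranking by another marker would have given other tumors, since 8 of the 12 tumors highest for Laptm5, 8 of those highest for Coro1a and 4 of those highest for Cd53 were Ptprc-high.

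In 7 of the 25 pan-leukocyte genes the groups did not overlap, against 0.293% of all genes, namely in Was, Vav1, Nckap1l, Dock2, Cd48, Ikzf1 and Itga4. Was, the Wiskott-Aldrich protein that drives actin branching in blood cells, was 18.3 to 34.5 RPKM (median 24.6) in the Ptprc-high and 5.62 to 15.4 RPKM (median 11.7) in the Ptprc-low tumors, a log2 difference of 1.14 ± 0.14 with an adjusted p of 7.15e-05. Ikzf1, or Ikaros, a lymphoid transcription factor, was 23.1 to 74.7 RPKM (median 32.2) against 3.74 to 18.3 RPKM (median 13.2), a log2 difference of 1.66 ± 0.25 with an adjusted p of 0.0002. These genes are in the cytoskeleton (Was, Nckap1l, Dock2), in signaling (Vav1), in adhesion (Itga4, Cd48) and in transcription (Ikzf1). Genes of any list with a mean under 0.5 RPKM were not tested, among them Ifng, Fasl and Gzmk of T and NK cells and Tnfrsf17 and Blk of B and plasma cells. Of all tested genes 249 (1.49%) reached this mean only through the Ptprc-high tumors. They included 0 of the pan-leukocyte, T cell and MHC class II genes, 1 each of the macrophage, chemokine ligand, endothelial and mesenchymal genes and 2 of the 8 lymph node stroma genes, and are given below for the lists of B and plasma cells, NK cells, dendritic cells, chemokine receptors and CD45 signaling. Without insulin_8 and X10_105 the pan-leukocyte list held 22 higher genes, and with treatment as a covariate 21.

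Among the kinases, adaptors and phosphatases that act with CD45 and the immunoreceptors, 31 of 45 tested genes (68.9%) were higher and 0 were lower. Without Sla2, which was tested only because of the Ptprc-high tumors, 30 of 44 were higher, with a median log2 difference of 0.84. Fyb, an adaptor between the T cell receptor and integrins, was 56.3 to 125 RPKM (median 84.7) in the Ptprc-high and 18.4 to 56.1 RPKM (median 36.2) in the Ptprc-low tumors. The groups did not overlap, and with a log2 difference of 1.33 ± 0.16 it had the lowest adjusted p of this list, 4.89e-05. Blnk, Inpp5d, Vav1 and Pik3cd, which are an adaptor, a lipid phosphatase, an exchange factor and a PI3 kinase subunit of blood cells, did not overlap between the groups either. Lck, the Src family kinase of T cells, was 7.56 to 102.3 RPKM (median 17.1) against 1.47 to 16.8 RPKM (median 4.28), a log2 difference of 2.16 ± 0.38 with an adjusted p of 0.000635. Lyn (0.85), a Src family kinase of myeloid and B cells, and Ptpn6 (0.90), the phosphatase SHP-1, were higher as well. Of the widely expressed members, Src (log2 difference -0.15, adjusted p = 0.427), Yes1 (0.10, adjusted p = 0.793) and Csk (0.14, adjusted p = 0.433), the kinase that sets the phosphate which CD45 removes, did not pass. In the fit with treatment 21 genes of the list passed, and 19 with the B cell and lymph node score as a covariate.

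**Figure D2:**
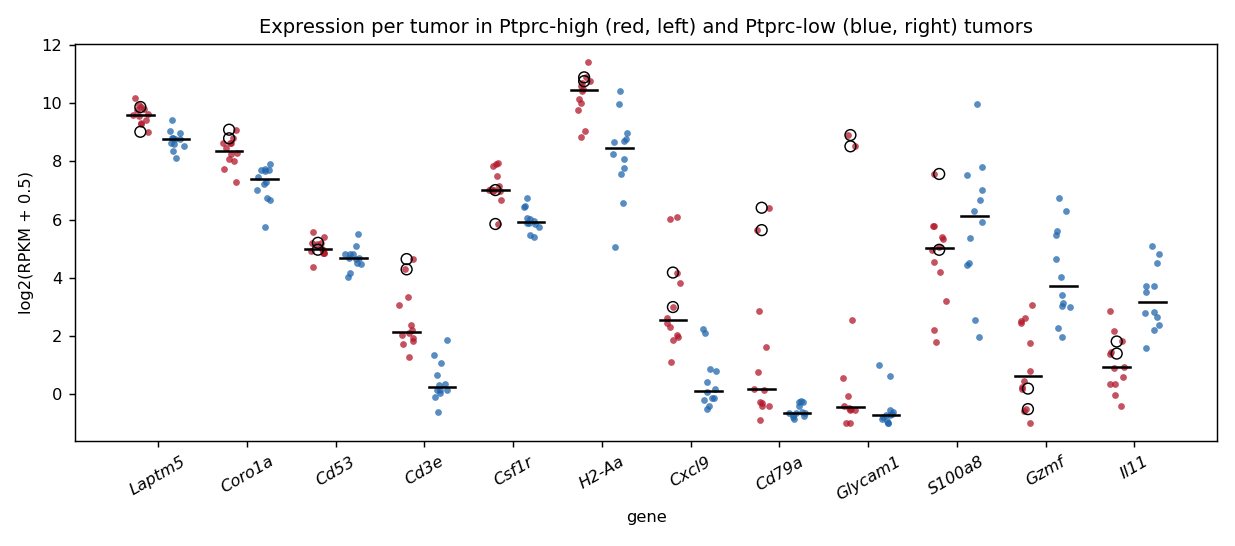
log2(RPKM + 0.5) of 12 genes in the 12 Ptprc-high tumors (red) and the 12 Ptprc-low tumors (blue), 1 point per tumor, with the median as a line and insulin_8 and X10_105 as open circles. Laptm5, Coro1a, Cd3e, Csf1r, H2-Aa and Cxcl9 are higher and Gzmf and Il11 lower in the Ptprc-high tumors, while Cd79a and Glycam1 are high in the open circles mainly.

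T cell genes were higher in the Ptprc-high tumors. Of 28 tested genes 25 (89.3%) were higher, 0 were lower and the median log2 difference was 1.63. Cd3e, a chain of the T cell receptor complex, was 1.90 to 24.5 RPKM (median 3.94) in the Ptprc-high and 0.160 to 3.14 RPKM (median 0.672) in the Ptprc-low tumors. All 12 Ptprc-high tumors were above the median of the Ptprc-low tumors and 9 were above all of them (log2 difference 2.12 ± 0.35, adjusted p = 0.000338). Cd3g (2.46 ± 0.41, adjusted p = 0.00036) and Cd3d (1.64 ± 0.35, adjusted p = 0.00288, 0.00013 to 0.07 over the alternatives) of the same complex were higher too. Ubash3a, which dampens signaling of the T cell receptor, was the only gene of the list without overlap, with 2.01 to 14.6 RPKM against 0.135 to 1.95 RPKM (log2 difference 1.95 ± 0.26, adjusted p = 8.51e-05). Cd8a, of cytotoxic T cells, was 0.494 to 8.70 RPKM (median 1.79) against 0.039 to 0.793 RPKM (median 0.227), and Cd4, of helper T cells, was 7.55 to 73.1 RPKM (median 18.1) against 1.23 to 15.1 RPKM (median 5.79). Both passed, with log2 differences of 1.78 (adjusted p = 0.000311) and 1.802 (adjusted p = 0.00417, 0.00047 to 0.11 over the alternatives). Foxp3, the factor of regulatory T cells (1.09, adjusted p = 0.00517, 0.00059 to 0.12 over the alternatives), was higher, whereas Bcl11b, Tcf7 and Lat did not pass. The highest value of many T cell genes was that of insulin_8, such as 24.5 RPKM for Cd3e against at most 9.72 RPKM in the 10 tumors other than insulin_8 and X10_105. Without these 2 tumors 24 genes were higher, with treatment as a covariate 19, and with the B cell and lymph node score as a covariate 11.

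Of 24 V, D, J and C segments of the T cell receptor 17 were higher, against 8.89% of all genes. Of the 17, 6 were tested only because of the Ptprc-high tumors, and 15 segments were higher without insulin_8 and X10_105. Of 14 genes of NK and cytotoxic cells 9 (64.3%) were higher, against 8.89% of all genes, and 0 were lower. Gzma and Tbx21 were tested only because of the Ptprc-high tumors, and of the other 12 genes 8 were higher. Nkg7, a granule membrane protein, was 1.59 to 15.9 RPKM (median 5.31) in the Ptprc-high and 0.137 to 3.86 RPKM (median 1.06) in the Ptprc-low tumors, a log2 difference of 1.87 ± 0.35 with an adjusted p of 0.0011. The cathepsin Ctsw (1.78) and the lectin-like receptors Klrd1 (1.42) and Klrb1c (1.17) were higher as well. The NK receptor Ncr1 was 0.237 to 5.79 RPKM against 0.014 to 4.43 RPKM and did not pass (1.03 ± 0.36, adjusted p = 0.0621, 0.0025 to 0.27 over the alternatives). Perforin (Prf1), which opens pores in target cells, was 0.380 to 4.10 RPKM (median 1.28) against 0.472 to 8.40 RPKM (median 1.69), with a log2 difference of -0.32 ± 0.37 and an adjusted p of 0.601, and granzyme B (Gzmb) had a log2 difference of 0.22 (adjusted p = 0.760). With treatment as a covariate 7 genes of this list passed, and 2 with the B cell and lymph node score.

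B cell and plasma cell genes had a wide spread within the Ptprc-high tumors. Of 23 tested genes 13 (56.5%) were higher, against 8.89% of all genes, and 0 were lower. However, 10 of the 23, Cd79a and Ms4a1 among them, had a mean under 0.5 RPKM outside the Ptprc-high tumors and were tested only because of these tumors, so the count over all 23 is no support. Of these 10 genes 2 were higher, and of the other 13 genes 11 were higher. Of 160 segments and constant regions of immunoglobulins 66 were higher, against 8.89% of all genes. Of the 160, 91 were tested only because of the Ptprc-high tumors, of which 22 were higher. Ighm, the heavy chain of IgM, was 9.26 to 301 RPKM (median 27.6) in the Ptprc-high and 0.545 to 13.9 RPKM (median 3.40) in the Ptprc-low tumors, a log2 difference of 2.97 ± 0.53 with an adjusted p of 0.00073. Igkc, the constant region of the kappa light chain, was 15.1 to 37120 RPKM (median 265) against 0.650 to 201 RPKM (median 16.9), a log2 difference of 4.37 ± 1.07 with an adjusted p of 0.00824 (0.00013 to 0.18 over the alternatives). The highest Igkc value was that of X10_105, insulin_8 had 5135 RPKM and another Ptprc-high tumor 10118 RPKM. Igkj1, a joining segment of the kappa chain, had the largest log2 difference of all genes that passed, 4.86 ± 1.09 (adjusted p = 0.00437), and was listed at 0 in tumors of both groups. The 10 largest log2 differences among the genes that passed, 3.90 to 4.86, were all joining segments or constant regions of immunoglobulins (Igkj1, Ighg2b, Ighg2c, Ighg1, Igkc, Ighj4, Ighj3, Ighj2, Igkj5 and Igkj4). These segments are alike in sequence, so reads could have been divided among them.

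The markers that define B cells were high in insulin_8 and X10_105. Cd79a, a part of the B cell receptor, was 49.3 and 84.5 RPKM in these tumors and at most 6.82 RPKM in the other 10 Ptprc-high tumors, with a median of 0.621 over all 12 and of 0.137 in the Ptprc-low tumors. Cd79a (log2 difference 1.84 ± 0.67, adjusted p = 0.0696) and Ms4a1 (1.33, adjusted p = 0.108), which encodes CD20, did not pass. Without both tumors 27 of the 160 immunoglobulin segments and 11 of the 23 B and plasma cell genes were higher, against 1185 of all 16732 genes. With treatment as a covariate 7 of the 23 were higher, and with muscle and adipocyte scores as covariates 8. These counts include the 91 segments and 10 genes tested only because of the Ptprc-high tumors, so they are no support either. Bank1, an adaptor of B cells, was 0.951 to 10.5 RPKM against 0.065 to 1.10 RPKM and passed with all tumors (1.27 ± 0.29, adjusted p = 0.00561) and without both (adjusted p = 0.0029, against up to 0.15 over the alternatives).

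The summed level of genes of lymph node stroma and high endothelial venules was highest in insulin_8 and X10_105 among the 24 tumors. Glycam1, a ligand of L-selectin on high endothelial venules, was 480 and 367 RPKM in these tumors, at most 5.33 RPKM in the other 10 Ptprc-high tumors and at most 1.52 RPKM in the Ptprc-low tumors. Of the tumors between the groups, glargine_78 had the most Glycam1, 36.0 RPKM. The log2 difference of Glycam1, 1.85 ± 0.98, did not pass (adjusted p = 0.224). The summed RPKM of the list was 775 and 692 in the 2 tumors and at most 119 in the other Ptprc-high tumors, against 3.52 to 40.1 in the Ptprc-low tumors. Of 8 tested genes, the B cell chemokine Cxcl13 (2.40 ± 0.65, adjusted p = 0.0164) and the lymphotoxin Ltb (1.41, adjusted p = 0.0282) were higher, and with both tumors left out they had adjusted p-values of 0.051 and 0.081 (0.0052 to 0.28 and 0.0017 to 0.49 over the alternatives). Cxcl13 was not highest in these tumors, with 14.8 RPKM in insulin_8, 42.1 RPKM in X10_105 and 49.9 RPKM in Untreated_186. Ccl21a, the chemokine of lymph node stroma, was 129 RPKM in insulin_8, 123 RPKM in X10_105 and at most 38.0 RPKM in the other 10 Ptprc-high tumors. In insulin_18, between the groups, it was 66.1 RPKM. Ccl21a was listed at 0 in 4 of the 24 tumors and had a log2 difference of 0.50 (adjusted p = 0.798). Whether lymph node tissue was part of these tumor pieces was not tested.

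Macrophage genes were higher with and without insulin_8 and X10_105. Of 37 tested macrophage and monocyte genes 22 (59.5%) were higher, 0 were lower and the median log2 difference was 0.83, and 24 were higher without both tumors. Csf1r, the receptor of the macrophage growth factor CSF1, was 57.2 to 249 RPKM (median 131) in the Ptprc-high and 41.9 to 106 RPKM (median 60.5) in the Ptprc-low tumors. X10_105 had the lowest Csf1r of the Ptprc-high tumors, and 10 of the 12 were above every Ptprc-low tumor (log2 difference 1.17 ± 0.20, adjusted p = 0.000424). Emr1 (F4/80) was 8.79 to 48.74 RPKM (median 33.0) against 1.97 to 21.2 RPKM (median 11.6), a log2 difference of 1.4998 ± 0.32 with an adjusted p of 0.00316. C1qa, a part of complement C1q that macrophages make, was 280 to 1107 RPKM (median 677) against 52.8 to 672 RPKM (median 322), a log2 difference of 1.17 ± 0.31 with an adjusted p of 0.0151 (0.0048 to 0.10 over the alternatives). Ccr2, the chemokine receptor of monocytes, was 15.7 to 84.2 RPKM (median 41.3) against 0.832 to 27.4 RPKM (median 14.7), a log2 difference of 2.12 ± 0.44 with an adjusted p of 0.00247. Cd84, Mpeg1 and Lyz1 were higher with log2 differences of 0.81, 1.28 and 0.88. Of the list, 15 genes did not pass, among them Cd68 (0.36, adjusted p = 0.257), Cd14 (-0.21, adjusted p = 0.732), Nos2 (-0.70, adjusted p = 0.233) and Spp1 (0.00, adjusted p = 0.998). In the fit with treatment 7 genes of the list passed, and with the B cell and lymph node score 23.

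Of 13 genes of dendritic cells 7 (53.8%) were higher, against 8.89% of all genes, and 0 were lower. One of the 7, Ccr9, was tested only because of the Ptprc-high tumors, and of the other 12 genes 6 were higher. Irf8, a factor of dendritic cell and monocyte development, was 73.9 to 208 RPKM (median 128.08) in the Ptprc-high and 15.9 to 103 RPKM (median 65.3) in the Ptprc-low tumors, a log2 difference of 1.21 ± 0.23 with an adjusted p of 0.00134. The lectins Cd209a (1.41), Clec10a (1.60) and Siglech (1.49), the last of plasmacytoid dendritic cells, were higher too. The defining markers Flt3 (0.41, adjusted p = 0.546), Zbtb46 (0.57, adjusted p = 0.0983) and Itgax (0.62, adjusted p = 0.130) did not pass. With treatment as a covariate 4 genes of the list passed, and 2 with the B cell and lymph node score, against 971 and 1031 of all 16732 genes.

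All 11 MHC class II genes were higher, with a median log2 difference of 1.797. These molecules present peptides to helper T cells and are made by B cells, dendritic cells and activated macrophages. H2-Aa, whose promoter is shown above, was 459 to 2740 RPKM (median 1411) in the Ptprc-high and 32.5 to 1379 RPKM (median 357) in the Ptprc-low tumors. The groups overlapped, and the log2 difference of 2.03 ± 0.44 had an adjusted p of 0.00339 (0.00028 to 0.063 over the alternatives). H2-Ab1, the beta chain, was 440 to 2482 RPKM against 34.3 to 1179 RPKM (log2 difference 1.97 ± 0.43), and the invariant chain Cd74 was 617 to 3107 RPKM against 56.9 to 1932 RPKM (1.85 ± 0.41). Ciita, the activator of class II genes, was 3.57 to 13.0 RPKM (median 6.74) against 0.181 to 3.79 RPKM (median 1.86), and 11 of 12 Ptprc-high tumors were above every Ptprc-low tumor (log2 difference 1.91 ± 0.28, adjusted p = 0.000189). Without insulin_8 and X10_105 10 genes passed, with H2-Oa lost (adjusted p = 0.069, 0.0004 to 0.70 over the alternatives), and with the B cell and lymph node score as a covariate 6.

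Genes of granulocytes did not pass, although these cells carry CD45. Of 14 neutrophil genes 0 were higher, 0 were lower, with a median log2 difference of -0.34, and the same was found for 8 mast cell and eosinophil genes, with a median of -0.20. S100a8, a calcium-binding protein of neutrophils, was 2.93 to 190 RPKM (median 31.8) in the Ptprc-high and 3.44 to 1013 RPKM (median 69.5) in the Ptprc-low tumors. Its log2 difference of -1.19 ± 0.75 did not pass (adjusted p = 0.309), nor did those of the receptors Csf3r (-0.35, adjusted p = 0.608) and Cxcr2 (-0.69, adjusted p = 0.372) and of the mast cell protease Cpa3 (0.04, adjusted p = 0.971). Since the neutrophil, mast cell and eosinophil lists held 0 higher genes, the tumors are called by their Ptprc level here and not leukocyte-rich or leukocyte-poor.

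**Figure D3:**
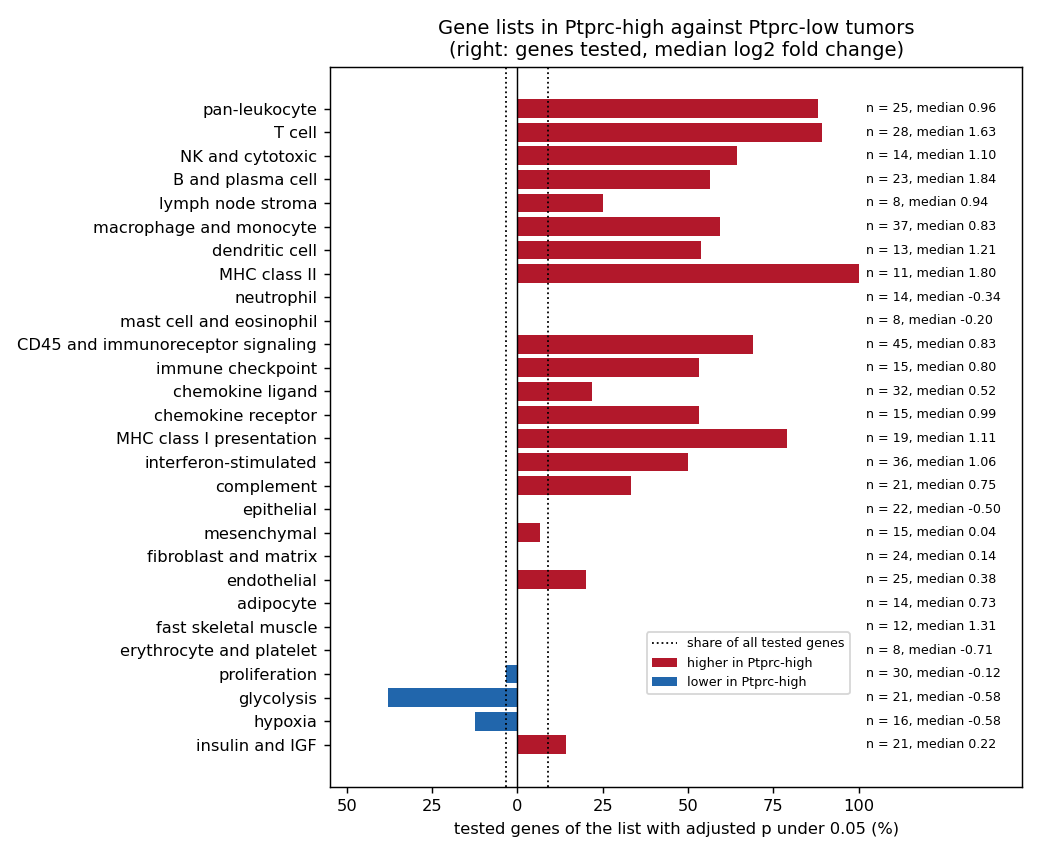
Percent of the tested genes of each list that were higher (red) or lower (blue) in the Ptprc-high tumors at an adjusted p under 0.05. Dotted lines are the shares over all genes, 8.89% higher and 3.43% lower, and the bars reach 100% for MHC class II and 88.0% for pan-leukocyte genes.

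Of 15 immune checkpoint genes 8 (53.3%) were higher, against 8.89% of all genes, and 0 were lower, with a median log2 difference of 0.80. Ctla4, an inhibitory receptor of T cells, was 0.666 to 8.86 RPKM (median 3.57) in the Ptprc-high and 0.130 to 3.58 RPKM (median 0.781) in the Ptprc-low tumors, a log2 difference of 1.53 ± 0.34 with an adjusted p of 0.00412 (0.0003 to 0.096 over the alternatives). The receptors Cd96 (1.25, adjusted p = 0.00057) and Btla (1.54) and the ligand Vsir, listed as 4632428N05Rik (0.74), were higher as well. Pdcd1, which encodes PD-1, was 0.441 to 3.73 RPKM against 0.353 to 6.43 RPKM, and neither it (0.58, adjusted p = 0.214) nor its ligand Cd274 (0.50, adjusted p = 0.211) nor Lag3 (0.81, adjusted p = 0.0897) passed. In the fit with treatment 5 genes of the list passed.

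Chemokine ligands were higher in part, 7 of 32 (21.9%, against 8.89% of all genes), with 0 lower and a median log2 difference of 0.52. Cxcl9, which interferon gamma induces and which attracts T cells through Cxcr3, was 1.65 to 67.4 RPKM (median 5.31) in the Ptprc-high and 0.207 to 4.26 RPKM (median 0.585) in the Ptprc-low tumors. Of the 12 Ptprc-high tumors 8 were above every Ptprc-low tumor (log2 difference 2.68 ± 0.50, adjusted p = 0.00109). Cxcl10, another ligand of Cxcr3 (1.68, adjusted p = 0.0314), Ccl5 (1.71, adjusted p = 0.00732) and the dendritic cell chemokine Ccl22 (1.55, adjusted p = 0.0105) were higher. The neutrophil chemokines Cxcl1, Cxcl2, Cxcl3 and Cxcl5 had negative log2 differences and did not pass. Of 15 chemokine receptors 8 (53.3%) were higher, against 8.89% of all genes, and 0 lower. Of the 15, Ccr9 and Cxcr5 were tested only because of the Ptprc-high tumors, and 7 of the other 13 were higher. Cxcr3 was 1.16 to 5.97 RPKM (median 1.91) against 0.081 to 1.49 RPKM (median 0.549), a log2 difference of 1.39 ± 0.25 with an adjusted p of 0.000747, and Cxcr6 (1.25) of T cells and Cx3cr1 (1.83) of T cells and macrophages were higher. With treatment as a covariate 2 of the 32 ligands passed, which is near the share over all genes in that fit, 971 of 16732. Of the receptors 5 passed in the same fit.

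Genes of antigen presentation by MHC class I were higher in 15 of 19 cases (78.9%), with a median log2 difference of 1.11. Nlrc5, the activator of class I genes, was 11.4 to 53.8 RPKM (median 27.9) in the Ptprc-high and 1.49 to 12.7 RPKM (median 5.505) in the Ptprc-low tumors. Of the Ptprc-high tumors 11 were above every Ptprc-low tumor (log2 difference 2.20 ± 0.30, adjusted p = 8.51e-05). B2m, the light chain of class I molecules, was 1053 to 2709 RPKM (median 1700) against 396 to 1507 RPKM (median 863), a log2 difference of 1.11 ± 0.20 with an adjusted p of 0.000649. H2-K1 (1.34) and the peptide transporter Tap1 (1.31) were higher, as were H2-Q6 (2.11), H2-Q7 (1.99) and H2-Q4 (1.51), near-identical copies among which reads could have been divided. The chaperones Calr (0.03) and Pdia3 (0.01) did not pass. With the B cell and lymph node score as a covariate 9 genes of the list were higher.

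Of 36 interferon-stimulated genes 18 (50.0%) were higher, 0 were lower and the median log2 difference was 1.06. Gbp7 was 10.0 to 30.0 RPKM (median 16.4) in the Ptprc-high and 2.85 to 9.94 RPKM (median 6.26) in the Ptprc-low tumors. The groups did not overlap (log2 difference 1.45 ± 0.20, adjusted p = 8.51e-05). Gbp5 was 2.78 to 17.7 RPKM (median 7.52) against 0.493 to 4.23 RPKM (median 1.67), a log2 difference of 1.92 ± 0.29 with an adjusted p of 0.000189. These are the genes whose promoters with STAT and interferon response motifs are shown above. Gbp4 (1.62) was higher, as were the antiviral Mx1 (1.23, adjusted p = 0.0347, 0.014 to 0.16 over the alternatives) and Irf9 (0.69, adjusted p = 0.0226, 0.0098 to 0.22 over the alternatives), a factor of interferon signaling. Of the 18 genes that did not pass, all had positive differences, such as Isg15 (0.40, adjusted p = 0.640), Ifit1 (0.87, adjusted p = 0.285) and Irf7 (0.91, adjusted p = 0.298). Without insulin_8 and X10_105 12 genes passed, with treatment as a covariate 11, and with the B cell and lymph node score 6.

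Of 21 complement genes 7 (33.3%) were higher, against 8.89% of all genes, and 0 lower, among them factor B (Cfb, 0.99, adjusted p = 0.00429) and the receptor C3ar1 (0.93, adjusted p = 0.0133), and 1 passed with treatment as a covariate. C3 was 149 to 1908 RPKM in the Ptprc-high and 59.9 to 1196 RPKM in the Ptprc-low tumors and did not pass (1.34, adjusted p = 0.0841). Of 25 endothelial genes 5 (20.0%) were higher, against 8.89% of all genes. The endothelial score was 1.55 in insulin_8 and 1.32 in X10_105. Without both tumors 2 of the 25 genes were higher, which is near the share over all genes in that fit, 1185 of 16732. With treatment, with the muscle and adipocyte scores or with the B cell and lymph node score as a covariate 2 genes were higher too. In these settings fewer of all genes were higher as well. The 5 genes were led by the adhesion molecules on which leukocytes dock, Icam1 (12.9 to 38.2 against 4.05 to 20.0 RPKM, log2 difference 1.196 ± 0.25, adjusted p = 0.00219) and Vcam1 (31.8 to 89.1 against 4.597 to 70.3 RPKM, 1.42 ± 0.31, adjusted p = 0.00342). Both are made by other cells as well. The vessel marker Pecam1 was 24.7 to 55.1 RPKM against 15.6 to 36.52 RPKM and did not pass (0.42, adjusted p = 0.0712, 0.00032 to 0.54 over the alternatives).

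Few genes of the tumor and stroma passed, and their errors were large. None of 22 epithelial, 24 fibroblast and matrix, 14 adipocyte, 12 fast skeletal muscle and 8 erythrocyte and platelet genes passed, with medians of -0.50, 0.14, 0.73, 1.31 and -0.71. Cdh1, or E-cadherin, was 2.44 to 49.5 RPKM (median 5.76) in the Ptprc-high and 0.993 to 106 RPKM (median 6.37) in the Ptprc-low tumors. Its log2 difference of 0.05 ± 0.55 had a large error, as the spread within each group was wide. Epcam (-0.17) and Krt8 (-0.53) of epithelium and Col1a1 (-0.43), Pdgfra (0.05) and Dcn (1.17) of fibroblasts did not pass either. Of 15 mesenchymal genes 1, Zeb2, was higher (0.76 ± 0.23, adjusted p = 0.0321, 0.00011 to 0.12 over the alternatives), a share of 6.67% that is below the 8.89% of all genes. Zeb2 is a repressor of E-cadherin that macrophages and NK cells express as well.

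**Figure D4:**
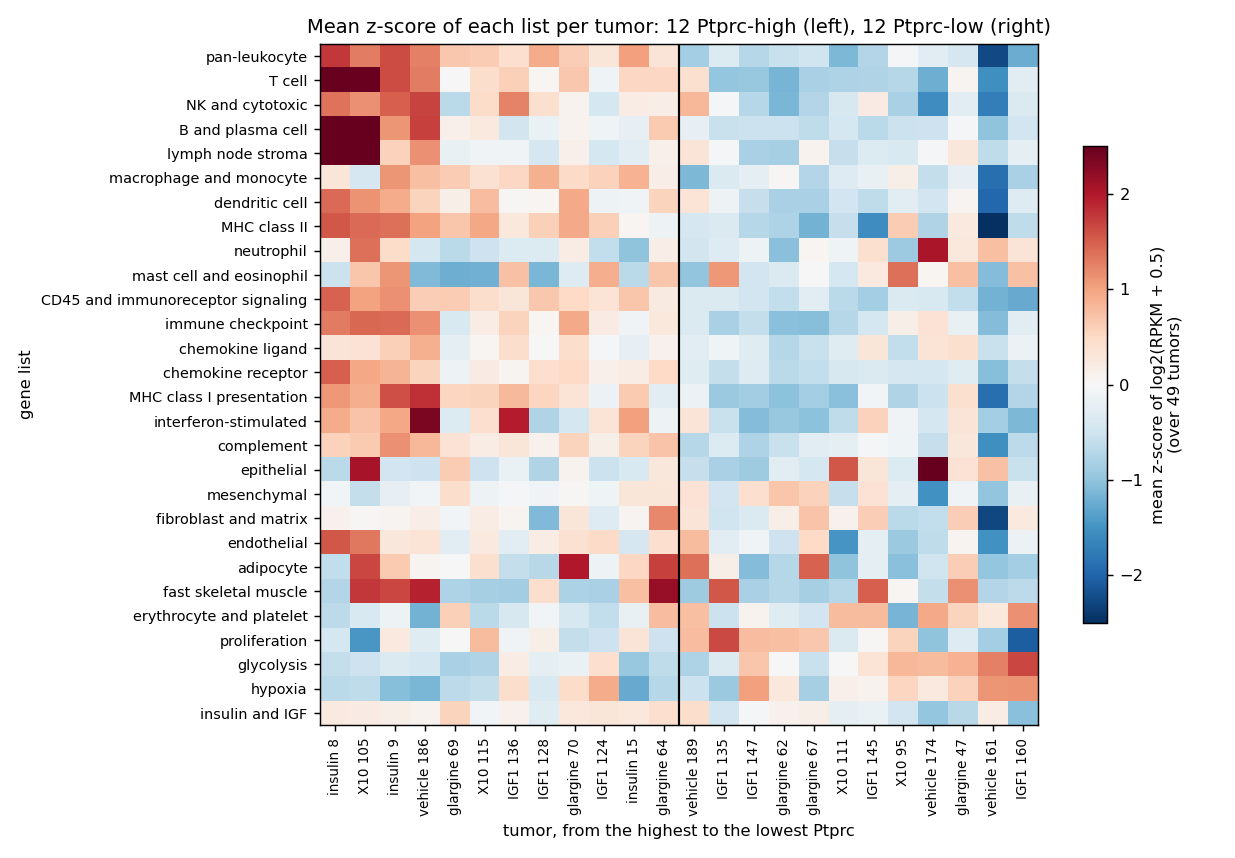
Mean z-score of each gene list (rows) in the 24 tumors (columns, by descending Ptprc), over the 49 ranked tumors, with the color scale ending at ±2.5. The B and plasma cell score is 3.14 in insulin_8 and 4.00 in X10_105, and the MHC class II score is lowest in Untreated_161 at -2.60.

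Genes lower in the Ptprc-high tumors included those of glycolysis. Of 21 tested genes 8 (38.1%) were lower and 0 higher, against 3.43% of all genes, with a median log2 difference of -0.58. Gapdh was 299 to 626 RPKM (median 481) in the Ptprc-high and 360 to 1747 RPKM (median 838) in the Ptprc-low tumors, a log2 difference of -0.85 ± 0.21 with an adjusted p of 0.00959 (1e-06 to 0.06 over the alternatives). Tpi1, the triose phosphate isomerase, was 360 to 655 RPKM (median 473) against 378 to 1584 RPKM (median 909), a log2 difference of -0.82 ± 0.20 with an adjusted p of 0.00951 (2.1e-06 to 0.083 over the alternatives). All 12 Ptprc-high tumors were below the median of the Ptprc-low tumors for both genes, and the ranges overlapped. Slc16a3, the lactate exporter MCT4, was 13.5 to 135.8 RPKM (median 37.8) against 52.1 to 276 RPKM (median 114), a log2 difference of -1.44 ± 0.38 with an adjusted p of 0.0138 (0.0012 to 0.15 over the alternatives). Eno1 (-0.75, adjusted p = 0.0101), Eno2, Pgam1, Pgk1 and Pkm were lower as well. Of the 8 genes only Eno1 passed with treatment as a covariate (adjusted p = 0.046, 3.8e-05 to 0.066 over the alternatives). Without insulin_8 and X10_105 4 genes were lower and Hk3, the hexokinase of leukocytes, was higher. With muscle and adipocyte scores as covariates 3 genes were lower, and with the B cell and lymph node score 0.

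Of 16 hypoxia genes 2 were lower, against 3.43% of all genes, and 0 higher, with a median log2 difference of -0.58. Adm, which encodes the vasodilator adrenomedullin, was 1.65 to 17.0 RPKM (median 3.54) in the Ptprc-high and 2.40 to 30.9 RPKM (median 18.5) in the Ptprc-low tumors, a log2 difference of -1.48 ± 0.42 with an adjusted p of 0.0204 (0.0029 to 0.12 over the alternatives). With treatment, the muscle and adipocyte scores or the B cell and lymph node score as a covariate 0 hypoxia genes passed. The other lower gene was P4ha2, a collagen prolyl hydroxylase (-0.74, adjusted p = 0.0297). Outside the list, Hilpda, a lipid droplet protein that low oxygen induces, had a log2 difference of -1.45 ± 0.34 with an adjusted p of 0.00567. Car9 (-0.22, adjusted p = 0.717) and Vegfa (-0.64, adjusted p = 0.160), both of the list, did not pass.

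The 10 largest negative log2 differences among the genes that passed, -3.14 to -1.22, were those of Gzmf, Gzmg, Il11, Wfdc2, Gzmd, Mmp13, Adm, Hilpda, Slc16a3 and Eno2. The granzymes among them belong to a cluster on chromosome 14. Gzmf was 0 to 7.78 RPKM (median 1.04) in the Ptprc-high and 3.41 to 106 RPKM (median 13.0) in the Ptprc-low tumors, a log2 difference of -3.14 ± 0.58 with an adjusted p of 0.000928. Gzmg (-3.10 ± 0.54, adjusted p = 0.00057) and Gzmd (-2.19 ± 0.63, adjusted p = 0.0242, 0.00086 to 0.079 over the alternatives) were lower too. Their neighbours Gzme (-1.57 ± 0.76, adjusted p = 0.181, from 0.037 to 0.33 over the alternatives) and Gzmc (-0.87 ± 0.60, adjusted p = 0.354) did not pass. Granzymes are serine proteases of cytotoxic cells, and these members are near-identical copies, so that reads could have been divided among them and the values of each are uncertain. Il11, a cytokine of the IL-6 family, was 0.248 to 6.67 RPKM (median 1.39) against 2.47 to 33.4 RPKM (median 8.75), a log2 difference of -2.28 ± 0.40 with an adjusted p of 0.000545 (0.00023 to 0.010 over the alternatives). The collagenase Mmp13 was 11.0 to 354 RPKM (median 53.1) against 40.0 to 2740 RPKM (median 261), a log2 difference of -1.95 ± 0.62 with an adjusted p of 0.0388 (0.0086 to 0.17 over the alternatives). Wfdc2, a secreted protease inhibitor of epithelia, had a log2 difference of -2.26 ± 0.72 with an adjusted p of 0.0406 (0.013 to 0.22 over the alternatives).

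Of 30 proliferation genes 1, the ubiquitin-conjugating enzyme Ube2c, was lower (-0.58 ± 0.14, adjusted p = 0.00782, 0.0031 to 0.13 over the alternatives) and 0 were higher. With 3.43% of all genes lower, this count is near the share over all genes. Mki67 was 14.0 to 28.7 RPKM (median 20.6) in the Ptprc-high and 6.88 to 27.4 RPKM (median 15.7) in the Ptprc-low tumors and did not pass (0.32, adjusted p = 0.357). Of 21 genes of insulin and IGF signaling 3 (14.3%) were higher, against 8.89% of all genes. These were the PI3 kinase subunits Pik3cd (1.10, adjusted p = 8.51e-05), Pik3cg (1.32, adjusted p = 0.000208) and Pik3r1 (0.72, adjusted p = 0.00725), of which Pik3cd and Pik3cg are known from leukocytes. The receptors Insr (0.33, adjusted p = 0.113) and Igf1r (-0.18, adjusted p = 0.514) and the ligand Igf1 (0.73, adjusted p = 0.247) did not pass.

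Gene length and gene type went with the direction as well. Among genes for which the length was recovered from the values, the median log2 difference was -0.06 up to 1000 bases, 0.01 from 1000 to 2000, 0.10 from 2000 to 4000 and 0.18 from 4000 to 7000 bases. The share of lower genes was 5.29%, 4.31%, 1.81% and 0.823% in these classes, and that of higher genes 6.72%, 7.92%, 10.8% and 12.2%. Of 1930 processed pseudogenes 9 were higher and 236 lower, whereas of 13519 protein coding genes 1302 were higher and 321 lower. Processed pseudogenes made up 2.497 to 5.70% (median 4.87%) of the summed RPKM in the Ptprc-high and 3.46 to 7.13% (median 6.04%) in the Ptprc-low tumors. After removal of each tumor's trend over gene length 23 of the 25 pan-leukocyte, 24 of the 28 T cell and 10 of the 11 MHC class II genes were higher, and 11 of the 21 glycolysis genes were lower. What the trend with length comes from was not tested.

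The genes whose log2 values were most like those of Ptprc over the 49 tumors were Ikzf1 (Pearson r = 0.92, Spearman rho = 0.86), Dock10 (0.91 and 0.86), Arhgap30 (0.87 and 0.85), Arhgef6 (0.87 and 0.85), Pik3cg (0.87 and 0.82), Rassf5 (0.86 and 0.87), March1 (0.86 and 0.86), Itga4 (0.86 and 0.79), Fli1 (0.86 and 0.81) and Dock2 (0.86 and 0.83). Without IGF1_160 and Untreated_161, the tumors farthest from the median, r was between 0.79 and 0.88 for these 10 genes. The points share a library with Ptprc, and the genes were chosen for this likeness.

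The 25 tumors between the groups did not enter the comparison of the groups, but the same Ptprc ranking placed them. Genes measured in the same tumors can vary together, so the counts of slopes below are a description. Each gene's log2 level was fitted on log2 Ptprc in these tumors with limma, within a narrower range of 16.1 to 26.9 RPKM. With an adjusted p under 0.05, 0 of 16732 genes passed (0%), the smallest adjusted p was 0.304, and 1124 genes had an unadjusted p under 0.05, with 500 (2.99%) positive and 624 (3.73%) negative slopes. Of the 1488 genes higher in the Ptprc-high tumors 1317 (88.5%) had a positive slope, against 44.9% of all genes, and 298 had an unadjusted p under 0.05. Of the 574 lower genes 477 (83.1%) had a negative slope, against 55.1% of all genes, and 63 had an unadjusted p under 0.05. With quantile normalization or with the trend over gene length removed 1 gene passed.

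By list, 24 of 25 pan-leukocyte genes had a positive slope in the middle tumors, 18 of them with an unadjusted p under 0.05, and so had 24 of 28 T cell (13), 34 of 37 macrophage (6), 11 of 11 MHC class II (3), 40 of 45 CD45 signaling (15) and 33 of 36 interferon-stimulated genes (0). Of the B and plasma cell genes 18 of 23 were positive and 0 had an unadjusted p under 0.05, and of the neutrophil genes 2 of 14 were positive. Ccr2 had a slope of 2.66 with an unadjusted p of 5.5e-05. Glycolysis genes had a median slope of -0.17 and 0 with an unadjusted p under 0.05.

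**Figure D5:**
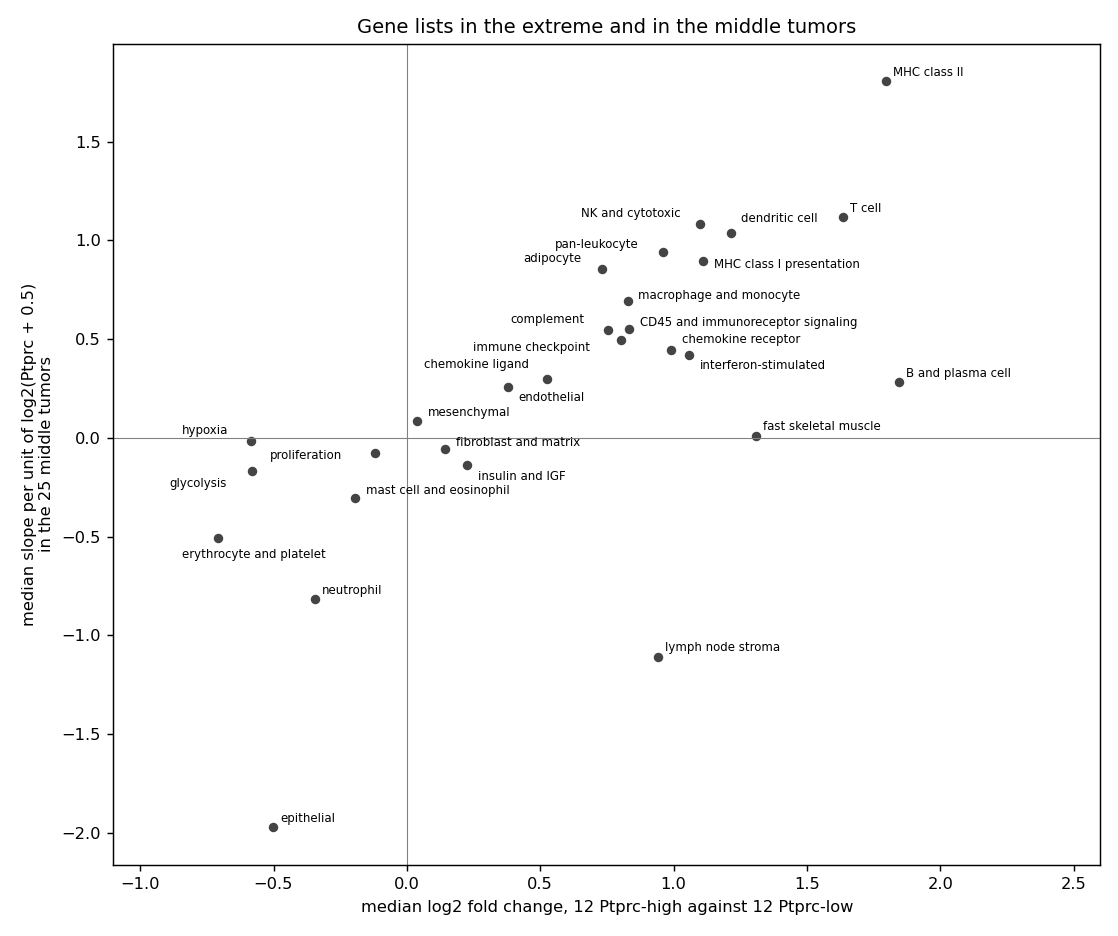
Median slope of each gene list on log2 Ptprc in the 25 middle tumors (vertical axis) against its median log2 difference between the Ptprc-high and Ptprc-low tumors (horizontal axis), 1 point per list. MHC class II, with 1.797 and 1.81, and T cell, with 1.63 and 1.12, lie high on both axes, and neutrophil, with -0.34 and -0.82, is negative on both.

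Since all tumors came from treated or vehicle mice, the genes of the leukocyte lists and of lymph node stroma were also compared between each treatment and vehicle in the 49 tumors. Of 181 genes of the 10 lists from pan-leukocyte to mast cell and eosinophil 0 passed for IGF1, X10, glargine or insulin, and over all 16733 genes 1 (0.00598%), 14 (0.0837%), 0 (0%) and 0 (0%) passed. At an unadjusted p under 0.05 there were 30 (16.6%), 15 (8.29%), 15 (8.29%) and 51 (28.2%) of the 181 genes, against 9.10%, 11.1%, 6.36% and 12.7% of all genes. Insulin had positive differences in 153 of 181 genes (84.5%, against 57.6% of all genes), with a median log2 difference of 0.52 against 0.05. These insulin counts leave out insulin_13, whose Ptprc of 9.27 RPKM lay within the range of the Ptprc-low tumors. Leaving it out can raise them, and the counts with it are not given. X10 had positive differences in 74.6% of these genes, against 44.4% of all genes, with a median of 0.20 against -0.03, and glargine in 101 (55.8%, against 54.1%), with a median of 0.04 against 0.02. IGF1 had positive differences in 96 (53.04%, against 53.4%), with a median of 0.06 against 0.02. The lowest adjusted p-values were those of the macrophage genes Mrc1 for insulin (0.0797) and F13a1 for IGF1 (0.0969). The 4 comparisons share the 10 vehicle tumors.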

How the data were processed

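Poly-A selected tumor RNA was sequenced on an Ion PI chip, and the deposited table holds RPKM for 37701 genes in 50 tumors, made by the authors from mapped reads. The submitters' processing notes name Bowtie2, TopHat2 2.0.10, HTSeq 0.6.1, DESeq2 1.2.10 and GRCm38. The RPKM of low genes rose in steps of 1 read, from which relative library sizes were recovered (26.6 to 51.9 M reads on a scale set by the steps), and 92.5 to 99.4% of the low values of a tumor were whole reads. The length by which the authors had divided was recovered for 16168 genes. Its median ratio to the exon union of GENCODE M21 was 0.607, so levels are not compared between genes.

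Genes with a mean of at least 0.5 RPKM over the 50 tumors were tested (16733, or 16732 without Ptprc) on log2(RPKM + 0.5) with limma 3.58.1 (R 4.3.3), with an intensity trend and Benjamini-Hochberg adjustment. A fold on this scale understates the change of low genes. Groups were the 12 tumors with the highest and the 12 with the lowest Ptprc of 49 tumors. The 25 middle tumors were fitted on log2(Ptprc + 0.5), and each treatment was compared with vehicle in the 49 tumors. Each tumor is taken as 1 mouse by its mouse number. Scores are mean z-scores of a list. Python 3.11.15, numpy 2.4.6 and pandas 2.3.3 were used for counts and figures. Coordinates are those of GENCODE M21.

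The genes named were taken from Ptprc, the markers that define each list (not all of which are printed), up to 4 genes of a list with the smallest adjusted p, the 10 largest and 10 smallest log2 differences among the genes that passed and the 10 genes with the highest correlation with Ptprc. Other genes named were chosen after their values were seen. Members and lists were chosen with earlier results of these data known. Alternatives were other pseudocounts, filters, scalings, group sizes and covariates, leaving out each tumor, and voom on the recovered reads. In data simulated for the Ptprc-high against Ptprc-low fit over 16733 genes, 79.5% of 200 genes with a log2 difference of 1 and 93% of 200 with a log2 difference of 2 were found, with 8 and 16 false calls. The simulated errors were normal and independent between genes, unlike those of real tumors, so these are not error rates of the comparison itself. Some genes of the lists are counted but not reported here by name.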

Additional observations from a re-analysis of the deposited data

Results flagged for a closer look

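Ptprc of insulin_8 was 51.3 RPKM, far above the other 8 insulin tumors. Its gap to the next insulin tumor was 0.509 of the range of the 9 tumors, and a gap over 0.493 of the range (Dixon's value for 9 samples) marked a tumor as far from its group. Both ends of the 5 treatment groups were looked at, and the other 9 were below this mark for their group size. Chance marks about 5% of groups. The mark rests on leaving out insulin_13. With it the range would start at 9.27 RPKM and not at 19.3 RPKM, and the gap would be below the mark for 10 samples, 0.466. Since the tumors were ranked by Ptprc, the mark is a description and no test. Tumor insulin_8 had a B and plasma cell score of 3.14 and a lymph node stroma score of 3.11.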

How the results depend on the processing

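The number of genes that passed between the Ptprc-high and Ptprc-low tumors was 2062. It was 1314 with a mean of at least 5 RPKM, where fewer genes were tested, 971 with treatment as a covariate, 1031 with the B cell and lymph node score as a covariate, 1223 with 8 against 8 tumors, where fewer tumors were used, and 4948 with log2 Ptprc as a regressor over 49 tumors. The cause of the difference under the covariates was not tested. Leaving out each tumor in turn gave 1675 to 2421 genes. Pseudocounts of 0.1 and 1, no filter, quantile and upper quartile scaling, no intensity trend, insulin_13 kept, library size or muscle and adipocyte scores as covariates, 16 against 16 tumors and voom gave 1582 to 2263 genes, or 2264 with insulin_13. Chosen after the data were seen, leaving out insulin_8 and X10_105 gave 1615 and removal of the trend over gene length 2053 genes. In the middle tumors 1 gene passed with quantile normalization and 1 with the trend over gene length removed, against 0. For the leukocyte and lymph node stroma lists against vehicle 0 genes passed under each alternative run. Of 129 genes followed, 0 of those called turned direction. Leaving out tumors gave 3096 values, of which 3034 kept their side of the threshold, and the other alternatives gave 2283, of which 2138 did. No paired analysis was possible because the replicate numbers are mouse numbers, which no groups share.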

Other observations

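Single tumors departed from their Ptprc group in other lists. Untreated_174, a Ptprc-low tumor, had an epithelial score of 2.53 and a neutrophil score of 2.04, and X10_105, a Ptprc-high tumor, had an epithelial score of 2.05 with 1036 RPKM of the basal keratin Krt5, against at most 4.21 RPKM in the other Ptprc-high tumors. Untreated_161 had the lowest MHC class II score (-2.60) together with a fibroblast score of -2.27 and a glycolysis score of 1.26. IGF1_160, with the lowest Ptprc, had a glycolysis score of 1.67 and a proliferation score of -2.05. The interferon score was 2.36 in Untreated_186 and 1.96 in IGF1_136, both Ptprc-high. Fast skeletal muscle scores were 2.18 in glargine_64 and 1.92 in Untreated_186. These are values of single tumors, with no test.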
